A study of Mus musculus with 2 samples.

Results

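Transcript levels of 10 genes of the canonical Wnt pathway (Ctnnb1, Axin1, Axin2, Apc, Gsk3b, Lef1, Tcf7l1, Tcf7l2, Lrp5 and Lrp6) were described in mouse leukemia stem cells. The members were the rows of the gene tables whose Ensembl identifier carries one of these symbols in GENCODE, and all 10 were found among 43346 Ensembl rows. Polyadenylated RNA of these cells had been sequenced with paired ends. There was 1 group, with 2 libraries that the labels number as biological replicates 1 and 2. All cells carried an infection with Friend virus, which causes erythroleukemia in mice. They were described as positive for CD34, CD133, Kit and Sca1 and came from adults of 10 to 12 weeks, male and female pooled, of a strain carrying the Fv2 sensitive allele. The libraries have separate biosample records and the same donor record, and part of their spread could be technical. No uninfected or treated group was analysed, and the libraries are set side by side without a test between conditions.

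In canonical Wnt signalling, a Wnt protein binds a Frizzled receptor together with the co-receptor LRP5 or LRP6. Without that signal, the scaffold proteins AXIN1, AXIN2 and APC hold beta-catenin, the product of Ctnnb1, beside the kinase GSK3B, which marks it for degradation. With the signal, beta-catenin is spared and enters the nucleus, where it binds the DNA-binding proteins LEF1, TCF7, TCF7L1 and TCF7L2. The pathway takes part in blood stem cell renewal, in lymphocyte development and in several leukemias. Axin2 is itself a widely used target gene of the pathway.

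Sequences that distinguish transcripts of 3 members are shown first. The transcript shares of Axin1 and Ctnnb1 differed between the libraries, and the coding forms of Lef1 were poorly resolved. All are on the plus strand of mm10 and were read from GENCODE transcripts. The first is exon 9 of the 11 exons of Axin1-201, at chr17:26192516-26192623, a coding exon of 108 bases (36 residues) that Axin1-203 lacks. The exon is in capitals between 15 bases of each neighbouring exon, and the joined neighbours as they stand in Axin1-203 follow.
Axin1-201 with the exon: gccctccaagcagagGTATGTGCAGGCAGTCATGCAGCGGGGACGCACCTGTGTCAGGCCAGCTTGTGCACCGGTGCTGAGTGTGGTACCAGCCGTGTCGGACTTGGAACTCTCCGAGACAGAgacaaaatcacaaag
Axin1-203 without it: gccctccaagcagaggacaaaatcacaaag
The second is exon 6 of the 12 exons of Lef1-201, at chr3:131191023-131191106, a coding exon of 84 bases (28 residues), in capitals, that Lef1-202 skips.
Lef1-201 with the exon: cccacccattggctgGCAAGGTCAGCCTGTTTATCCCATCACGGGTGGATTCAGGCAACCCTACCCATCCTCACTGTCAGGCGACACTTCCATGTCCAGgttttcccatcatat
Lef1-202 without it: cccacccattggctggttttcccatcatat
The third is the start of the intron sequence kept at the end of Ctnnb1-209, at chr9:120955973-120956447 (475 bases), which follows exon 10 of the 15 exons of the coding transcript Ctnnb1-201. The last 15 bases of the exon are in lower case and the first 100 bases of the intron in capitals.
Ctnnb1-209 into the intron: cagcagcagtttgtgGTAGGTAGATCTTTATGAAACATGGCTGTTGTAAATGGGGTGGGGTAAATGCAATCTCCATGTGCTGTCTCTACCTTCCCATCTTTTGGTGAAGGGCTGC

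Most members were present at moderate levels. A level here is the deposited TPM, a share of transcripts corrected for length, and detection means at least 1 TPM in both libraries. By this criterion 9 of the 10 members (90%) were detected, against 41.6% of the 21474 protein-coding genes. The members had a median of 11.3 TPM over the means of both libraries, and the protein-coding genes a median of 0.55 TPM. Of these protein-coding genes, 6252 had 0 counts in both libraries. By mean TPM, Axin1, Ctnnb1 and Gsk3b exceeded 70.2%, 67.4% and 55.3% of the detected protein-coding genes. The other detected members exceeded between 10.4% (Lef1) and 47.4% (Tcf7l2) of them. The member that was not detected was Tcf7l1. The files summed to 23575315 expected counts (estimated numbers of fragments) in replicate 1 and 22541765 in replicate 2, and each member had at least 20 counts over both.

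**Figure D1:**
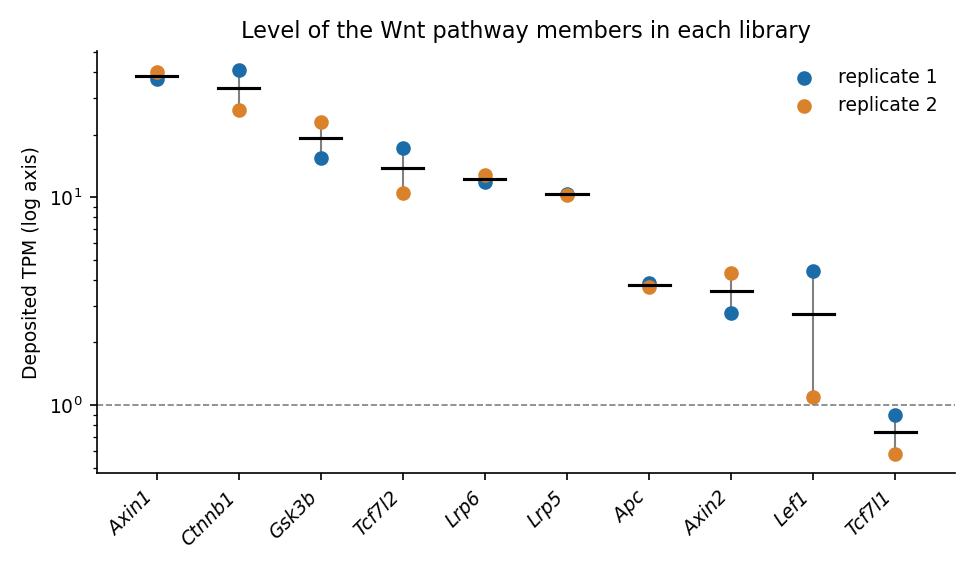
Deposited TPM (log axis) of each member in replicate 1 (blue) and replicate 2 (orange), with a black bar at the mean and a dashed line at 1 TPM. Axin1 and Ctnnb1 stand highest, Tcf7l1 lies below the line in both libraries, and Lef1 has the widest gap between its points.

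Both co-receptors were present at similar gene TPM. Lrp6 (ENSMUSG00000030201.11, chr6:134446476-134566965) had 11.77 TPM in replicate 1 and 12.83 in replicate 2, a mean of 12.3 ± 0.750 (SD, n = 2). Lrp5 (ENSMUSG00000024913.12, chr19:3584828-3686564) had 10.41 and 10.20 TPM, a mean of 10.3 ± 0.148 (SD, n = 2). Lrp5 was the lower in each library, at 0.884 times the TPM of Lrp6 in replicate 1 and 0.795 times in replicate 2. The 2 values of one gene do not overlap those of the other, although they differ by little. By counts Lrp5 was the higher, with 773 and 732 against 432 and 316 for Lrp6. Complete coding transcripts also put Lrp5 higher, at 4.78 and 3.97 TPM against 1.14 and 0.98.

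Among the scaffolds, Axin1 was the most abundant and Axin2 and Apc were scarce. Axin1 (ENSMUSG00000024182.12, chr17:26138688-26195811) had 37.19 and 39.82 TPM in replicates 1 and 2, the highest mean of all members (38.5 ± 1.86, SD, n = 2). Axin2 (ENSMUSG00000000142.11, chr11:108920349-108950783) had 2.78 and 4.32 TPM (3.55 ± 1.09, SD, n = 2). The ratio of Axin1 to Axin2 was 13.4 in replicate 1 and 9.22 in replicate 2, so the form that is not a common target gene predominated in each. Apc (ENSMUSG00000005871.10, chr18:34220924-34322552) had 3.86 and 3.69 TPM (3.78 ± 0.120, SD, n = 2), and its values lie inside the range of Axin2. Its relative Apc2 had 16 and 18 counts and a level under 1 TPM in each library.

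The kinase gene Gsk3b (ENSMUSG00000022812.9, chr16:38089001-38246084) had 15.42 TPM in replicate 1 and 22.97 in replicate 2 (19.2 ± 5.34, SD, n = 2). Its close relative Gsk3a, whose product phosphorylates beta-catenin as well, stood 14.2 times higher in replicate 1 and 10.5 times higher in replicate 2. Gsk3b was thus the minor of the GSK3 messages in both libraries.

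Ctnnb1 (ENSMUSG00000006932.12, chr9:120929216-120960507), which encodes beta-catenin, had 40.95 TPM in replicate 1 and 26.17 in replicate 2 (33.6 ± 10.5, SD, n = 2). Its range takes in both values of Axin1, so the order of these leading members is not settled by the libraries. Each value of Ctnnb1 exceeded both values of Gsk3b. At the nuclear end, Tcf7l2 (ENSMUSG00000024985.14, chr19:55741820-55933654) was the leading DNA-binding member, with 17.22 and 10.46 TPM (13.8 ± 4.78, SD, n = 2), a range that overlaps those of Gsk3b and Lrp6. Lef1 (ENSMUSG00000027985.10, chr3:131110471-131224356) had 4.39 TPM in replicate 1 and 1.09 in replicate 2 (2.74 ± 2.33, SD, n = 2). Its 2 values enclose those of Axin2 and Apc. Tcf7l1 (ENSMUSG00000055799.9, chr6:72626378-72789254), often a repressor in stem cells, had 0.90 and 0.58 TPM from 36 and 27 counts, below Lef1 in each library.

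The TCF/LEF factor with the highest level was not a member. Tcf7, which encodes TCF1, a factor of T cells and blood stem cells, had 63.64 TPM in replicate 1 and 37.59 in replicate 2. It exceeded Tcf7l2 3.70 times and 3.59 times, a ratio that held nearly steady while both genes had less TPM in replicate 2. The ratio of Tcf7l2 to Lef1 was 3.92 in replicate 1 and 9.60 in replicate 2. The order from Tcf7 through Tcf7l2 and Lef1 to Tcf7l1 was the same in each library.

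In the comparison of the libraries, Axin2 and Gsk3b had more counts in replicate 2 and Lef1 fewer, and the other 7 members lay within 2-fold. Counts were scaled by TMM, which sets the bulk of genes equal, and a gene was called apart when the 95% exact binomial (Clopper-Pearson) interval of its ratio lay wholly beyond 2-fold. The interval covers counting error only. Of the members, 1 was apart with more in replicate 1, where 14.9% of the 12547 genes tested were, and 2 with more in replicate 2, where 9.17% were. The median log2 ratio of replicate 2 over replicate 1 was 0.06 over the members and -0.04 over all genes.

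Axin2 had 86 counts in replicate 1 and 244 in replicate 2, a log2 ratio of 1.99 (interval 1.64 to 2.37). Gsk3b had 2380 and 3698 counts, a log2 ratio of 1.13 (1.05 to 1.20). Lef1 had 273 and 72 counts, a log2 ratio of -1.42 (-1.83 to -1.05). These make Axin2 3.97-fold and Gsk3b 2.18-fold higher in replicate 2, and Lef1 2.68-fold higher in replicate 1. Counts of Ctnnb1 were 1662 and 1151, and its log2 ratio of -0.04 equalled the all-gene median. The log2 ratios of Axin1 (0.39), Lrp5 (0.41), Lrp6 (0.04), Tcf7l1 (0.08), Apc (-0.13) and Tcf7l2 (-0.26) were smaller than 1 in size.

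The scale matters for these calls. On the log2 ratio of deposited TPM the median of all genes was -0.45, where TMM put it at -0.04. On that scale Axin2 stood at 0.63 and Gsk3b at 0.58, both within 2-fold, and Lef1 at -2.01. Hba-a1, an alpha-globin gene, took 51056.5 TPM in replicate 1 and 133373 in replicate 2, and its part in the shift was not tested. Relative to the all-gene median of its own scale, Axin2 was 2.03 higher by TMM counts and 1.08 by TPM, Gsk3b 1.17 and 1.02, and Lef1 was -1.38 and -1.56. The mean effective length that the authors' tables give for Axin2 was 1566 bases in replicate 1 and 2842 in replicate 2, so the counts and the per-length level of this gene do not move alike.

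**Figure D2:**
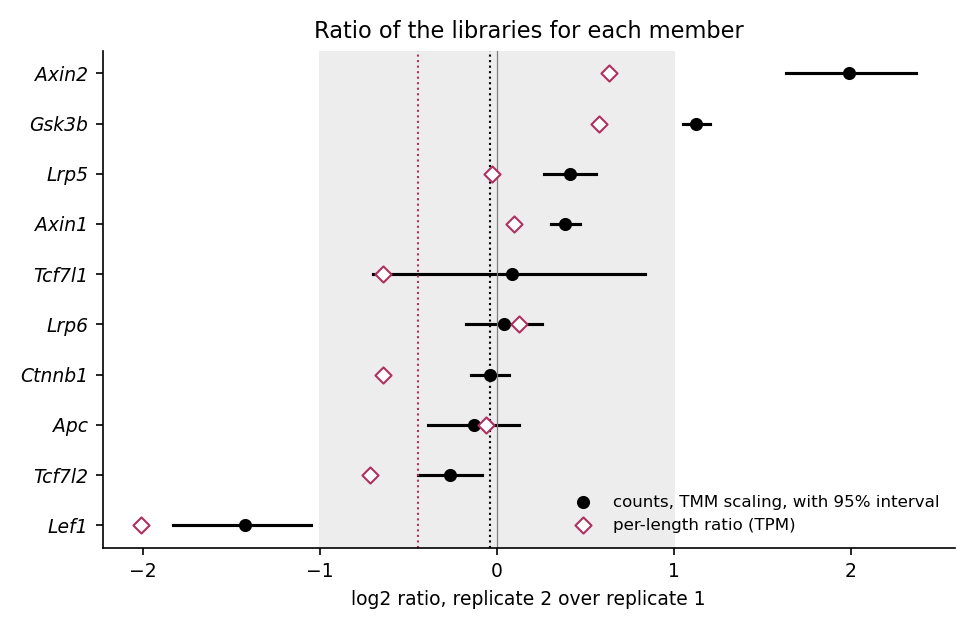
Log2 ratio of replicate 2 over replicate 1 for each member from TMM-scaled counts (black, with the 95% counting interval) and from deposited TPM (open diamonds). The grey band is 2-fold and the dotted lines are the all-gene medians, -0.04 for counts and -0.45 for TPM. Axin2 and Gsk3b leave the band to the right by counts alone, and Lef1 leaves it to the left on both scales.

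The transcripts of Axin1 changed places between libraries of nearly equal gene level. Both main transcripts are complete coding ones, and their coding sequences differ by the 108-base exon shown above. Axin1-201, with the exon, had 26.48 TPM in replicate 1 and 7.57 in replicate 2, and Axin1-203, without it, had 10.55 and 32.25. As shares of the gene, Axin1-201 held 71.18% and 19.01%, and Axin1-203 held 28.37% and 80.99%. The estimated counts behind them were 1906 and 547 for Axin1-201 and 575 and 1761 for Axin1-203. The annotated transcripts also differ in the length of their untranslated ends (3777 and 2890 bases in all), and which reads set the shares cannot be read from these tables. No 25-base word of Axin1 occurs in another gene's transcripts.

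Ctnnb1 kept its scaled counts, while the estimated share of its coding transcript was lower in replicate 2 and that of a shorter one higher. Ctnnb1-201, the complete coding transcript, had 17.05 TPM in replicate 1 and 2.26 in replicate 2. Ctnnb1-209, the noncoding form of 2359 bases that ends in the intron shown above, had 5.77 and 21.38 TPM. The share of Ctnnb1-201 in the gene was 41.64% and 8.66%, and that of Ctnnb1-209 was 14.09% and 81.71%. Another intron-retaining form of 773 bases, Ctnnb1-210, held 37.69% in replicate 1 and had 0 counts in replicate 2. Summed over retained-intron forms, the gene had 21.33 and 22.61 TPM, on a scale whose all-gene median lies lower in replicate 2. Their estimated counts were 450.28 and 952.36, or 27.1% and 82.7% of the counts of Ctnnb1, so by counts these forms were higher in replicate 2. Ulk4, on the opposite strand, overlaps the 3′ part of Ctnnb1, with the intron shown above, and had 40 and 18 counts. The strandedness of the libraries is not given in the sources used here, and a part of Ulk4 reads in Ctnnb1-209 was not tested. The posterior mean estimates of the authors gave the same leading transcripts for Ctnnb1 and for Axin1. As for Axin1, which reads set the shares of Ctnnb1 cannot be read from the deposited values.

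**Figure D3:**
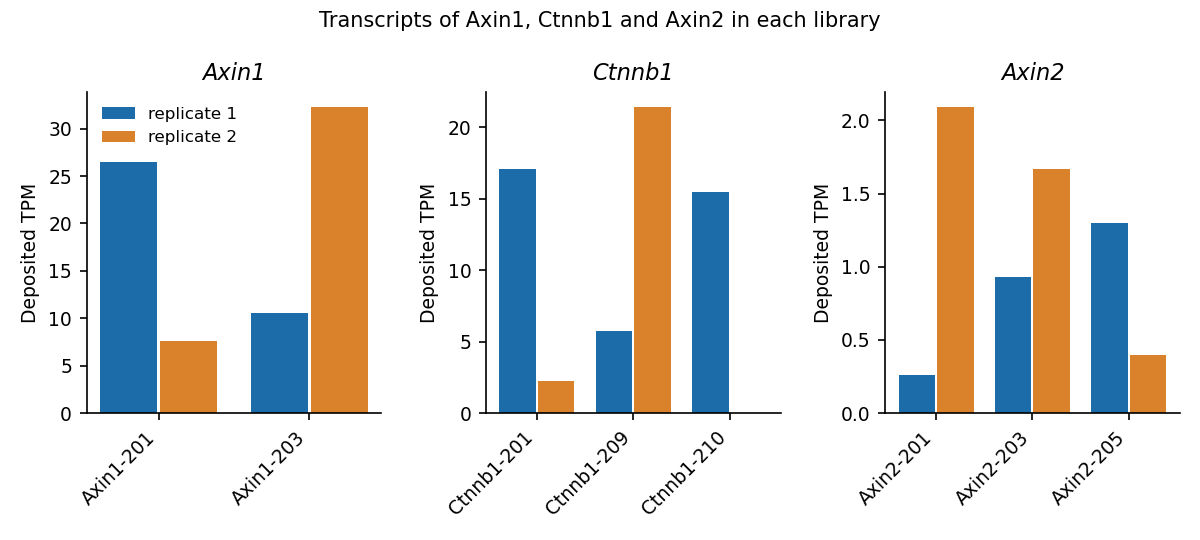
Deposited TPM of the transcripts of Axin1, Ctnnb1 and Axin2 that hold at least 10% of their gene in either library, in replicate 1 (blue) and replicate 2 (orange). Axin1-201 falls from 26.48 to 7.57 where Axin1-203 goes from 10.55 to 32.25, and Ctnnb1-209 and Axin2-201 are higher in replicate 2.

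Axin2 differed in its coding form. Its complete coding transcript Axin2-201 had 20.95 estimated counts in replicate 1 and 171.33 in replicate 2, or 9.24% and 48.43% of the gene. The noncoding Axin2-205, of 1051 bases, held 46.93% and 9.33%, and the noncoding Axin2-203 held 33.63% and 38.71%. Complete coding forms of Axin2 thus summed to 0.32 TPM in replicate 1 and 2.09 in replicate 2. These rest on few reads.

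Tcf7l1 also had a different leading transcript in each library, Tcf7l1-202 with 77.63% in replicate 1 and Tcf7l1-201 with 52.84% in replicate 2, both coding, with at most 24.36 estimated counts each. Different leading transcripts were found in 4 of the 10 members (Axin1, Axin2, Ctnnb1 and Tcf7l1), against 30.1% of the 6747 detected protein-coding genes with more than 1 transcript. The share among members is thus not far from that of other genes. Tcf7l1 is among the 4 although it was not detected.

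The other 6 members kept their leading transcript by TPM. By estimated counts 5 members did, since Apc was led by Apc-203 in replicate 1 and by Apc-207 in replicate 2. Gsk3b-201 held 94.47% and 99.1% of Gsk3b, so its difference between the libraries lay in a single coding form. Tcf7l2-222 held 94.23% and 96.59% of Tcf7l2, and 87.42% and 85.15% by posterior means. Its length differs in the GENCODE version that gave its class. Lef1-201, with the exon shown above, held 80.91% of Lef1 in replicate 1 and 100% in replicate 2. Lef1-203, a shorter coding form, held 14.81% in replicate 1 and had 0 counts in replicate 2. Lef1-202, which skips the exon, and Lef1-204, another coding form, had 0 counts in both libraries. The posterior mean shares were less one-sided, with 65.22% and 52.98% for Lef1-201 and 9.07% and 16.18% for Lef1-202. Lef1-204 had 5.61% and 23.56%, so these forms are poorly resolved at 273 and 72 counts.

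Lrp5, Lrp6 and Apc were led, per length, by annotated forms that do not encode the whole protein. Lrp5-203, annotated for nonsense-mediated decay, held 54.08% and 60.87% of Lrp5, and the full Lrp5-201 held 45.42% and 38.88%. Lrp6-203, a fragment of 722 bases with an incomplete coding end, held 69.13% and 92.38% of Lrp6, and the full Lrp6-201 held 9.69% and 7.62%. By estimated counts the order was the reverse in both genes. Lrp6-201 had 208 and 179 counts and Lrp6-203 had 94.74 and 136.84, and Lrp5-201 had 469.7 and 395.39 counts and Lrp5-203 had 300.56 and 332.17. A short transcript gains in TPM over its counts because TPM divides by length. Lrp6-202, with a retained intron, held 21.18% in replicate 1 and had 0 counts in replicate 2. For Apc, the retained-intron form Apc-207 held 59.0% and 80.83%, the complete coding Apc-203 16.54% and 9.67%, and the incomplete Apc-209 18.17% and 8.19%. By estimated counts Apc-203 exceeded Apc-207 in replicate 1 (154.07 and 76.16) and not in replicate 2 (86.5 and 99.81).

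Under 50% of TPM lay in complete coding transcripts in both libraries for 5 members, Ctnnb1, Apc, Lrp5, Lrp6 and Axin2. The same held for 31.4% of the 6747 genes above, of which 9 were members. By estimated counts no member was under 50% in both libraries, against 18.6% of those genes. In a single library, the count share was under 50% for Ctnnb1 (13.6%) and Apc (42.1%) in replicate 2. The same was so for Axin2 (27.9%) and Lrp6 (48.2%) in replicate 1. In Axin1, complete coding forms took 99.5% of TPM in replicate 1 and 100% in replicate 2. Read per length, the complete coding transcripts of Ctnnb1 (17.05 and 2.26 TPM), Lrp5 (4.78 and 3.97), Lrp6 (1.14 and 0.98), Apc (0.88 and 0.41) and Axin2 together stood below their gene levels. These sums include small amounts of shorter complete coding forms, such as Lrp5-202.

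**Figure D4:**
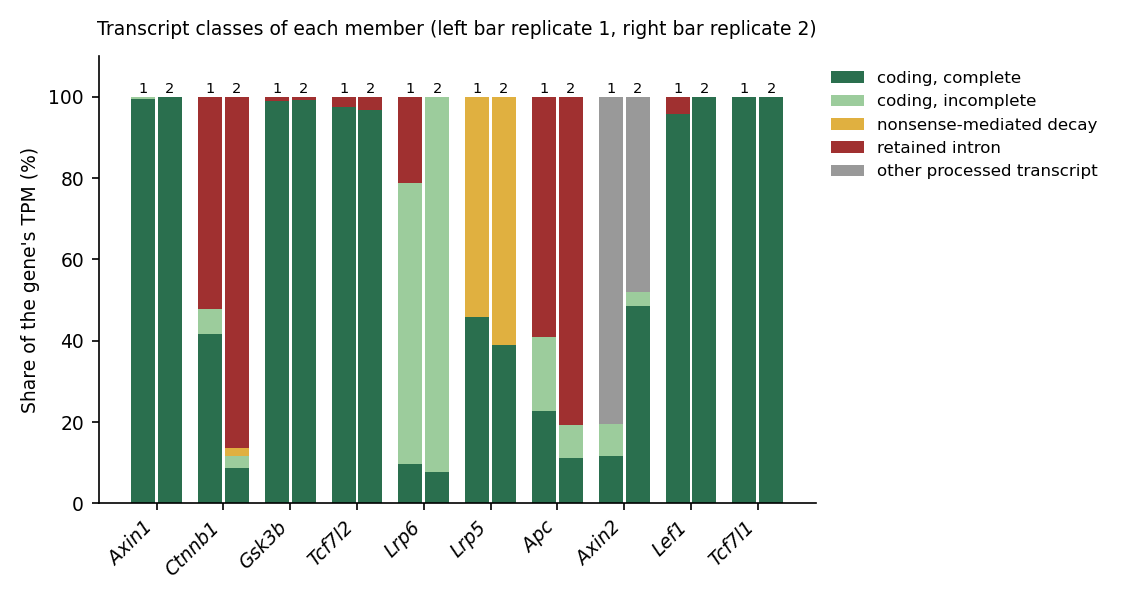
Share of each member's TPM (%) by the annotated class of its transcripts, with replicate 1 on the left and replicate 2 on the right of each pair. Axin1, Gsk3b, Tcf7l2, Lef1 and Tcf7l1 are almost wholly complete coding (dark green), and retained-intron forms (red) take 52.1% and 86.4% of Ctnnb1.

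Around the members, most intracellular genes of the pathway were detected and most extracellular ones were not. Over both sides, 35 of 91 other Wnt pathway genes were detected, with a median of 0.43 TPM, near the 41.6% and 0.55 TPM of protein-coding genes. Only 1 of 19 Wnt ligand genes was detected in both libraries, Wnt10a, at 1.19 and 5.11 TPM, and it was apart with more in replicate 2. Wnt5a, a ligand known mainly for non-canonical signalling, had 2.17 and 0.25 TPM and was apart with more in replicate 1. Wnt6 (0.77 and 0.55 TPM) and Wnt11 (0.48 and 0.28) were below 1 TPM. Another 7 ligand genes had 0 counts in both libraries, Wnt16, Wnt2b and Wnt4 among them. Porcn, which lipidates Wnt proteins, had 3.93 and 4.27 TPM, and Wls, their carrier to the cell surface, 0.64 and 0.22.

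The receptors that pair with Lrp5 and Lrp6 were few. Of 10 Frizzled genes 3 were detected, Fzd5 (8.17 and 6.71 TPM), Fzd7 (2.98 and 2.39) and Fzd1 (1.86 and 1.62), followed by Fzd8 (0.91 and 0.75). By gene TPM, Lrp5 and Lrp6 each exceeded Fzd5 in both libraries. Their complete coding transcripts, at 4.78 and 3.97 TPM for Lrp5 and 1.14 and 0.98 for Lrp6, lay below the gene TPM of Fzd5. This sets a part of each co-receptor gene against the whole of Fzd5, whose transcript classes were not summed. Among 9 genes of receptor turnover, the ubiquitin ligase genes Rnf43 (11.28 and 4.38 TPM) and Znrf3 (4.22 and 4.16) were detected, and Rnf43 was apart with more in replicate 1. The R-spondin gene Rspo1 had 0.15 and 0.36 TPM. Its relatives Rspo2, Rspo3 and Rspo4, whose products oppose those ligases, had 0 counts in both libraries. Of 14 antagonist genes 2 were detected, Sfrp4 (2.53 and 5.39 TPM, apart with more in replicate 2) and Kremen1 (3.62 and 4.26). Notum, which encodes an enzyme that inactivates Wnt proteins, had 0.27 and 0.47 TPM. Frzb had 3.34 and 0.33 TPM and was apart with more in replicate 1, and 7 antagonist genes, including Dkk1, Dkk4 and Sfrp2, had 0 counts in both.

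Inside the cell, all 3 Dishevelled genes, which relay the receptor signal to Axin, were detected. Dvl1 had 135.07 TPM in replicate 1 and 213.33 in replicate 2, which lie within 2-fold. By TMM-scaled counts it was apart with more in replicate 2, at a log2 ratio of 1.24 (interval 1.20 to 1.29). Calls for genes other than the members are given by TMM-scaled counts only. Dvl2 (36.97 and 31.16 TPM) and Dvl3 (34.16 and 34.09) were near Axin1 in level. Of 11 other destruction complex genes 8 were detected and none was apart. Gsk3a (218.69 and 241.64 TPM) and the casein kinase genes Csnk1a1 (168.71 and 164.6), Csnk1d (111.2 and 98.33) and Csnk1e (29.95 and 49.7) led them. The kinases thus stood well above the scaffolds Apc and Axin2 on the per-length scale.

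Of 14 nuclear partners of beta-catenin and TCF/LEF 12 were detected and none was apart. Aes led with 1543.1 and 2049.16 TPM, followed by Pygo2 (403.16 and 466.22), Tle3 (158.48 and 211.96) and Cby1 (88.46 and 81.48). Of 9 genes known as Wnt targets in other tissues 3 were detected, Myc (492.07 and 376.52 TPM), Cd44 (13.91 and 5.6) and Ccnd1 (4.59 and 3.4). Apcdd1 had 1.84 and 0.68 TPM, Nkd1, a feedback inhibitor, had 1.36 and 0.63, and Sp5 had 0 counts in both libraries. Ascl2, with 11 and 38 counts, was apart with more in replicate 2. The list had no common direction, with 3 log2 ratios above 0 and 3 below and a median of -0.27, and Cd44 (-1.15), Apcdd1 (-0.77) and Nkd1 (-0.60) were on the other side from Axin2. In all, 3 of the 91 genes were apart with more in replicate 1 and 4 with more in replicate 2, of 51 with enough counts, beside 14.9% and 9.17% of all genes tested.

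**Figure D5:**
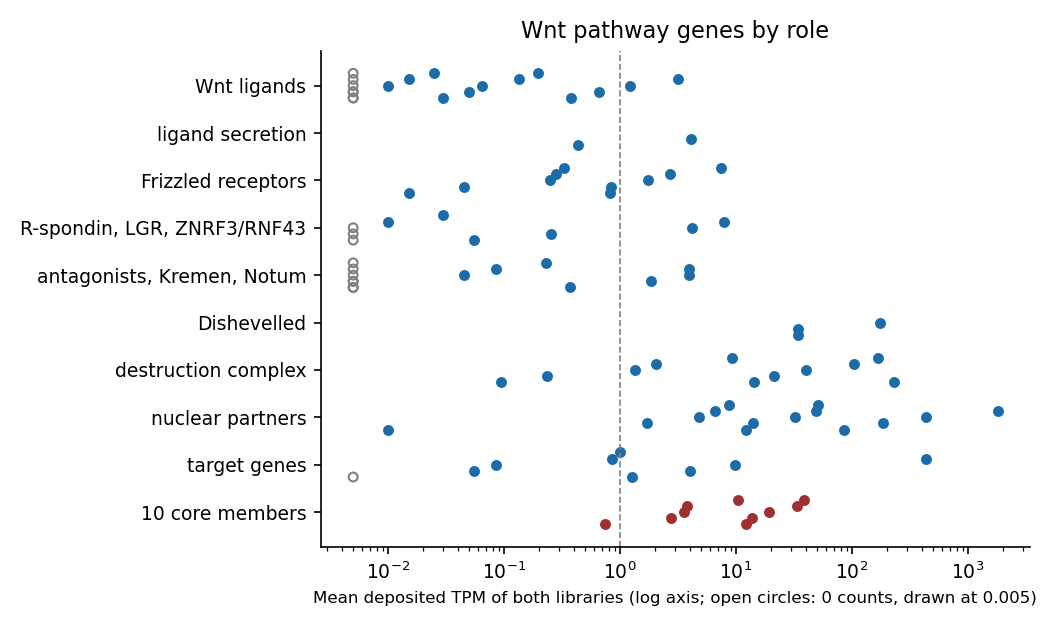
Mean deposited TPM (log axis) of Wnt pathway genes by role, 1 point per gene, with the 10 members in red, a dashed line at 1 TPM and genes of 0 counts as open circles. Ligands and antagonists lie mostly left of the line and Dishevelled, destruction complex and nuclear genes mostly right of it.

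Ctnnb1 also serves cell adhesion, where beta-catenin links cadherins to alpha-catenin. Of 6 adhesion genes 5 had enough counts and 3 were apart, all with more in replicate 1, where 14.9% of all genes tested were: Ctnna1 (36.27 and 8.33 TPM), Ctnnd1 (4.11 and 0.8) and the endothelial cadherin gene Cdh5 (7.4 and 1.82). Jup, which encodes the related gamma-catenin, had 23.19 and 28.68 TPM and was not apart. Cdh1, the epithelial cadherin, had 0.48 and 0.31 TPM. The complete coding level of Ctnnb1 and its gene TPM were lower in replicate 2, as was Ctnna1, while its TMM-scaled count was about level.

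Markers of the labelled cells and of other cell types were read in the same libraries. Of the 4 sort markers, Kit (1.81 and 1.06 TPM) and Ly6a (1.45 and 2.15) were detected, Cd34 had 1.80 and 0.27 TPM, and Prom1 had 0.06 TPM in replicate 1 and 0 counts in replicate 2. All 8 erythroid markers were detected, led by Hba-a1, Hbb-bs and Klf1. In bulk RNA, fewer cells of a type and less RNA per cell cannot be told apart.

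Lef1 and Tcf7 are known lymphocyte genes, and markers of lymphocytes were present. Of 10 T and NK markers 5 were detected and none was apart, and their summed level was 110.75 TPM in replicate 1 and 101.36 in replicate 2, led by Cd2, Bcl11b and Lck. Of 8 B markers 6 were detected and 2 were apart with more in replicate 1, and their summed level was 699.23 and 293.91 TPM. Cd79a, with 436.49 and 99.43 TPM, made up most of that difference, and Pax5 had 131.13 and 114.47 TPM and Cd79b 87.84 and 51.14. The B markers did not move alike, with 3 log2 ratios of TMM-scaled counts above 0 and 4 below, and Ebf1 had 6.16 and 11.7 TPM. No T, NK or B marker was at 0 in both libraries, and the part of these cells in the level of Lef1 was not tested. Macrophage markers (5 of 6 detected) summed to 917.01 and 1246.57 TPM, led by C1qc, C1qb and C1qa. Of these markers 1 (C1qc) was apart with more in replicate 2 and 2 (Adgre1 and Cd68) with more in replicate 1. By TPM, C1qc lay within 2-fold (367.96 and 638.55). Endothelial markers (2 of 6 detected, led by Plvap, Cdh5 and Pecam1) summed to 116.87 and 114.7 TPM. Plvap (107.51 and 111.46 TPM) made up most of these sums, and Cdh5 was apart with more in replicate 1. Stromal markers (3 of 6 detected, led by Col3a1, Col1a2 and Col1a1) summed to 23.89 and 14.57 TPM, with Dcn and Lum at 0 counts in both libraries. Epithelial markers (0 of 6, led by Epcam, Krt19 and Cdh1) summed to 1.99 and 3.28 TPM. Col3a1 was apart with more in replicate 1, and Krt19, at 4 and 46 counts, with more in replicate 2.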

How the data were processed

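The authors deposited a gene table and a transcript table per library on mm10 with GENCODE M4 models, per the accompanying readme. Per the file headers these hold expected counts, TPM, FPKM, the percent of each transcript in its gene, and posterior mean estimates. Which aligner and quantifier were run is not given in the sources used here. Of 69691 rows, 43346 had an Ensembl identifier, and 42462 of these matched GENCODE M21 of the same assembly, which gave symbols, types, positions and sequences. Of 79 member transcripts, 7 differ in length in M21, and none of these is shown as sequence.

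Expected counts were rounded to whole numbers, and scaled by TMM (edgeR 4.0.16, R 4.3.3) over genes with 20 or more counts. Ratios were taken with a prior of 0.5 counts and an exact 95% interval. The interval step was tested on simulated counts with counting error only and without TMM. That simulation cannot show how often calls arise from other spread between libraries. DESeq2 1.42.0 size factors, other scalings, TPM minimums, FPKM and posterior means were alternatives. With 1 group, no p-value was calculated. The members and the 19 gene lists were chosen with earlier results of these data known. Named genes were all members, the 4 highest of each pathway list (Lgr4 was left out), up to 3 at 0 counts and those apart. Marker lists name the 3 highest and those at 0 counts, and member transcripts are named from 10% of their gene. Prom1, Apc2, Tcf7, Nkd1, Ulk4, Ebf1, Adgre1, Cd68, Lef1-202, Lef1-204 and Lrp5-202 were outside the rule and chosen after their values were seen. Analyses used Python 3.11.15, numpy 2.4.6, pandas 2.3.3 and scipy 1.17.1, and figures matplotlib 3.10.9.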

Additional observations from a re-analysis of the deposited data

How the results depend on the processing

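Detection of the members ranged from 6 at a minimum of 5 TPM to 10 at 0.5 TPM. At 5 TPM, a minimum chosen after seeing the data for the other pathway genes, 23 of these were detected in place of 35. The median log2 ratio of the members was -0.37 with total counts and -0.046 with the ratio of deposited TPM, in place of 0.06, and with the TPM ratio 1 member (Lef1) was apart in place of 3. The share of apart genes with more in replicate 2 was 38.2% with TMM, 40.3% with DESeq2 size factors, 13.2% with total counts and 14.9% with TPM. Gsk3b was within 2-fold with total counts (0.70) and TPM, and Axin2 with TPM, while Lef1 was apart under each scaling tried. By posterior mean TPM the ratio of Apc to Apc2 was 8.18 in place of 39.9, and that of Tcf7 to Tcf7l2 3.42 in place of 3.64. Members under 50% of TPM in complete coding transcripts in both libraries numbered 5. They numbered 0 by expected counts and 3 with all protein-coding transcripts, both alternatives chosen after seeing the data. The cause of the posterior mean changes was not tested. Of the other values 164 stayed within their spread or call, 15 moved beyond the spread of the replicates and 3 lost their call. The 164 include levels and shares with a replicate left out, which lie within the SD of 2 values by construction. They also include ratios that were not apart under either setting, whatever their change in size. The number is thus no measure of stability. Tcf7l1 rose to a mean of 1.15 TPM by posterior means, above the minimum. Leaving out a replicate gives no ratio, and each library's own level and shares are given above. No paired analysis was possible because there was 1 group. Counts of 0 allow up to 3 counts, and values of Axin2, Tcf7l1 and Lef1 transcripts are limited by depth.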
